A study of Mus musculus with 8 samples.

Results

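Glycosphingolipids are membrane lipids in which sugars are attached one after another to ceramide. They are built at the endoplasmic reticulum and Golgi apparatus and taken apart from the sugar end in the lysosome, by hydrolases that work with small activator proteins. α-galactosidase A, the product of the X-linked gene Gla, removes the terminal galactose of globotriaosylceramide, the lipid that accumulates in Fabry disease. In the brain, gangliosides, the sialic acid-bearing members of the family, are abundant in neurons, and galactosylceramide and sulfatide are lipids of myelin. The mRNA levels of 45 genes of ceramide, sphingomyelin, glycosphingolipid and ganglioside synthesis and breakdown, Gla among them, were examined in prefrontal cortex of the Fabry model. The genes were chosen by name for their roles in this metabolism, and every probe of each gene on the array was taken.

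Of the 45 genes, 44 had at least 1 probe under their own symbol, out of 34650 gene names on the array, and together they had 56 probes. The groups were 4 α-Gal A(-/0) mice, males whose single X chromosome carries a null allele of Gla, and 4 wildtype mice. All 8 were males of 20 to 24 weeks, labelled as strain C57BL/6J (the methods give the background of the mutants as C57BL/6), with 1 one-color array per mouse. The mutant and wildtype mice came from separate inbred colonies, so a difference between colonies and an effect of the allele cannot be told apart here. Each array carries DNA probes of 60 bases, and the brightness of a spot, given here as log2 signal after quantile normalization over the 8 arrays, follows the amount of matching RNA in the tissue piece. Brightness also depends on the probe, so levels were compared between mice for 1 probe at a time. In a tissue piece, fewer cells of a type and less RNA per cell cannot be told apart.

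A probe entered the test if at least 1 genotype had it well above background in all 4 of its mice, as did 54 of the 56 member probes (43 genes) and 34339 of 55681 probes in all. Between 35218 and 38240 probes were well above background per array, except for 29943 in α-Gal A(-/0) mouse 2. On the slide, α-Gal A(-/0) mouse 1 and wildtype mice 1 to 3 lay in 1 row and the other 4 mice in the other. All 6 excitatory neuron marker genes of cortex were detected, with means of 11.30 to 11.57 in α-Gal A(-/0) mice and 11.47 to 11.66 in wildtype mice, 8 of 9 probes negative (median -0.21), 2 at an unadjusted p under 0.05 and none called. The mean of 6 microglia genes, each by its brightest probe, lay at 11.38 to 11.60 in α-Gal A(-/0) mice and 11.66 to 11.91 in wildtype mice, with 9 of 10 probes negative, 7 at an unadjusted p under 0.05 and 1 called, a probe of the receptor Csf1r (A_55_P2025078). Its log2 fold change was -0.44 (limma, adjusted p = 0.0117), called in 15 of 18 other settings (adjusted p up to 0.192). The other 2 Csf1r probes had -0.37 without overlap (limma, adjusted p = 0.0615) and 0.59 with a standard error of 0.453. In the probe with 0.59, α-Gal A(-/0) mouse 2 stood at 12.12 and the other mice of that genotype at 9.98 to 10.06. The mean of 8 astrocyte genes lay at 12.33 to 12.48 in α-Gal A(-/0) mice and 12.55 to 12.57 in wildtype mice, with all 14 probes negative, 5 at an unadjusted p under 0.05 and none called. The mean of 8 striatum genes lay at 11.45 to 13.12 in α-Gal A(-/0) mice and 11.13 to 12.52 in wildtype mice, with all 12 probes positive, 1 at an unadjusted p under 0.05 and none called. Endothelial probes were negative in 8 of 11 cases (median -0.12, none called). Of 8 probes of 6 general neuron markers 3 were positive and 5 negative (median -0.02), and none was called. The lowest p among those 8 was that of the Snap25 probe, with -0.32 and no overlap (limma, unadjusted p = 0.00327, adjusted p = 0.154). The criterion of the methods, given in the next paragraph, was met by this probe and by 3 microglia probes, all lower. None of the other lists above held a probe that met it, against 3.46% of all tested probes. The part of these marker differences in the results that follow was not tested.

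Of the 54 tested member probes 1 differed between the genotypes, that of Neu4, which was lower in α-Gal A(-/0) mice. A probe was called where limma's adjusted p, by Benjamini-Hochberg over all tested probes, was under 0.05. The called member is 1.85% of the 54, beside 0.885% of all 34339 tested probes. On the whole array 199 called probes (0.58%) were lower in α-Gal A(-/0) mice and 105 (0.306%) were higher. The study's methods used another criterion, a p not above 0.01 before adjustment and a fold change from 1.2 upward, counted here with limma's p in place of that of their own test. It was met by 1 member probe, Neu4 again. Of all probes 3.46% met it, 2.31% in the lower direction. An unadjusted p under 0.05 was reached by 5 member probes (9.26%), those of Neu4, Cerk, B4galnt1, Ugt8a and 1 of Gm2a, against 12% of all probes. By the methods' own test 0 member probes were called at the adjusted threshold used here, beside 89 of all 34339 tested probes. With the unadjusted p of that test, 1 member probe met the methods' criterion, again Neu4.

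The member probes otherwise lay close to zero change. Their median log2 fold change, α-Gal A(-/0) minus wildtype as everywhere here, was -0.01, beside -0.02 over all tested probes, with 22 member probes positive and 32 negative. The median standard error was 0.078. For 32 of the 54 member probes (59.3%), against 33.4% of all probes, the whole 95% interval of the change lay within 1.2-fold in either direction, and for 50 of them (92.6%) it lay within 1.5-fold. Most members were thus measured closely enough that a change of 1.5-fold lies outside their interval.

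**Figure D1:**
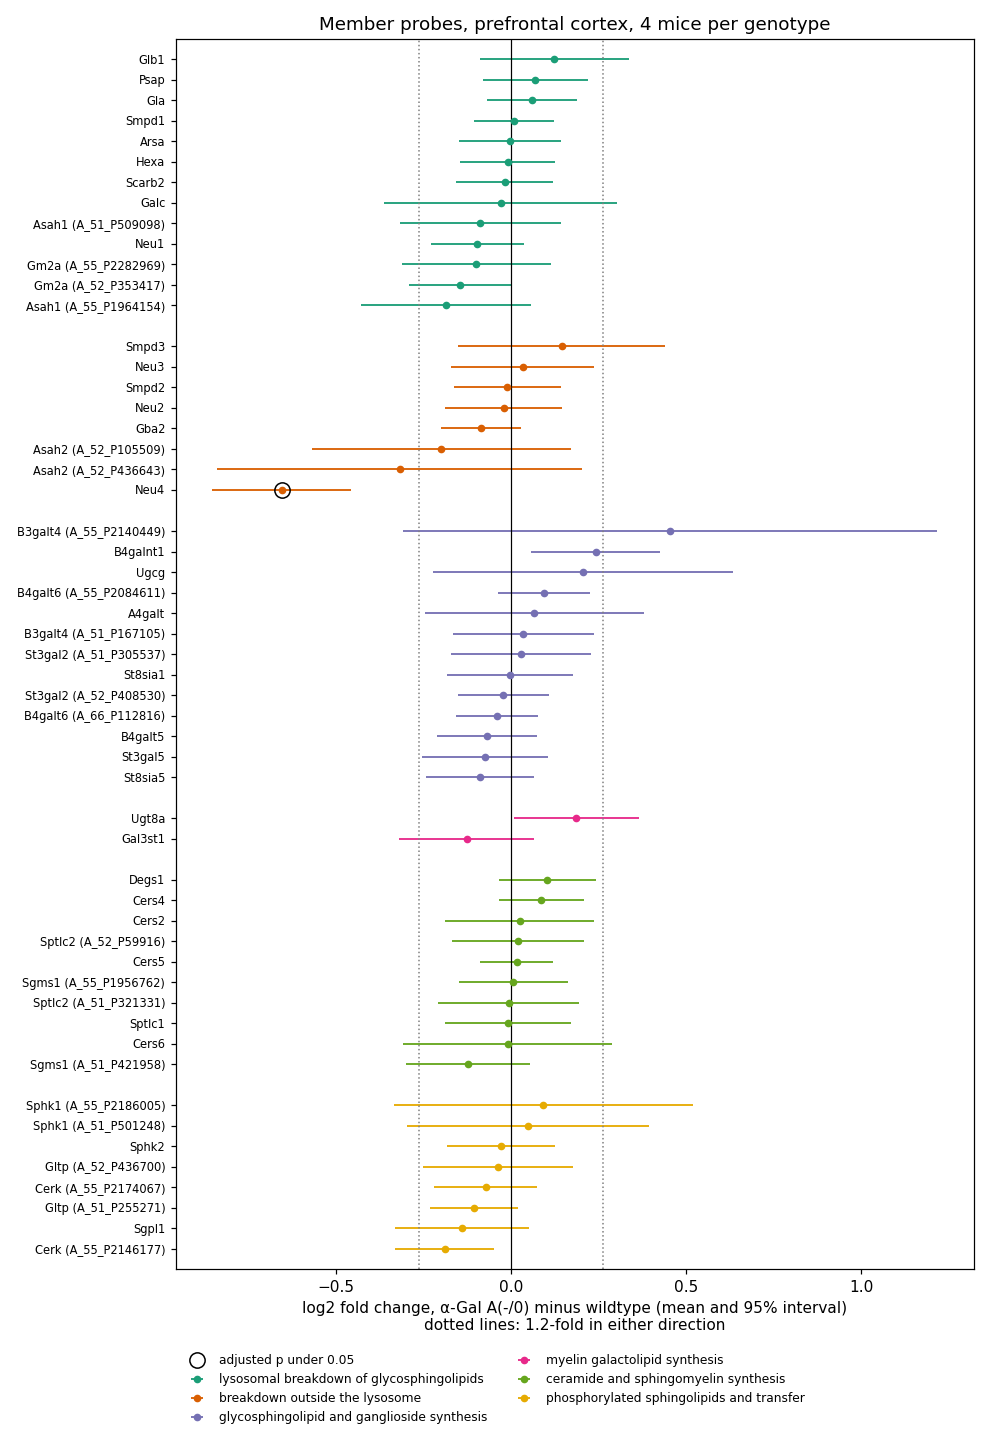
Log2 fold change (x axis, α-Gal A(-/0) minus wildtype) with its 95% interval from limma for each of the 54 tested member probes (y axis), grouped by role and with 4 mice per genotype. The interval of the circled Neu4 probe, -0.85 to -0.46, is the one called, and dotted lines mark a 1.2-fold difference in either direction.

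Neu4 encodes a sialidase, an enzyme that removes sialic acid from gangliosides and glycoproteins, and is known from brain and, within it, from cells of the oligodendrocyte lineage. Its only probe (A_55_P2074326) lies at chr1:95924642-95924701 on the plus strand of mm9, and its first 30 bases are shown because the one called change rests on this probe.
Neu4: gcgcatattttgattttaacataagtgctg
The Neu4 log2 signal was 5.79, 5.63, 5.77 and 5.84 in α-Gal A(-/0) mice 1 to 4, against 6.42, 6.34, 6.27 and 6.61 in wildtype mice 1 to 4. Every α-Gal A(-/0) mouse lay below every wildtype mouse. The means were 5.75 ± 0.09 and 6.41 ± 0.15 (SD, n = 4 each), a log2 fold change of -0.66 with a standard error of 0.086, or 0.635-fold (limma, adjusted p = 0.0117).

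The Neu4 probe was dim. It was well above background on 3 of 4 α-Gal A(-/0) arrays and on all 4 wildtype arrays, so it entered the test through the wildtype mice alone. With normexp background correction the log2 fold change was -0.34 (limma, adjusted p = 0.019). That setting starts from mean spot and background signals in place of the processed signals, and adds an offset of 50 to every signal. The offset by itself shrinks the fold changes of dim probes, and its part in the smaller value was not tested. The probe was called under 15 of 17 other settings, of which the one without saturated probes removed none and so repeats the main fit. The Neu4 probe missed the threshold by the methods' own test (adjusted p = 0.124) and without wildtype mouse 1 (limma, adjusted p = 0.0509). Within the slide row that held 1 α-Gal A(-/0) and 3 wildtype mice the difference was -0.55, and within the row that held 3 and 1 it was -0.86.

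Genes beside Neu4 and markers of the cells that express it were looked at next. The 33 other tested probes within 1 Mb of the Neu4 probe held no called probe, and their lowest adjusted p was 0.387. They carry 22 names, which include chromosome intervals and bare identifiers beside genes. Of 10 probes for 9 markers of oligodendrocyte precursors, a list written after the Neu4 value had been seen, none was called and 1 had an unadjusted p under 0.05, and the mean of the 9 lay at 9.62 to 9.84 in α-Gal A(-/0) mice and 9.69 to 9.80 in wildtype mice. C1ql1 (log2 fold change -0.18, limma, adjusted p = 0.473) and Bmp4 (0.29, adjusted p = 0.37) were at the ends of that list. Of 17 probes of mature oligodendrocyte markers none was called either, with 12 positive and 5 negative (median 0.06). The 3 at an unadjusted p under 0.05 were positive, Cldn11 (0.22), 1 probe of Mobp (0.30) and Mag (0.20). List means were 12.84 to 12.93 in α-Gal A(-/0) mice and 12.68 to 12.89 in wildtype mice.

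The probe of Gla itself showed no difference beyond the spread of the mice. It (A_55_P2146136) lies at chrX:131122895-131122954 of mm9, on the minus strand. The Gla log2 signal was 17.13, 17.18, 17.17 and 17.13 in α-Gal A(-/0) mice, against 17.01, 17.17, 17.06 and 17.13 in wildtype mice. The groups overlapped. The difference was 0.06 on the log2 scale, with a standard error of 0.056 (limma, adjusted p = 0.703), and between 0.03 and 0.09 under the other settings. The interval, -0.07 to 0.19, leaves out a loss of 1.2-fold in this signal. It rests on quantile-normalized values. With a 75th percentile shift instead, the difference was 0.08 with a larger standard error of 0.107 (limma, adjusted p = 0.826). Where the gene is interrupted relative to the probe is not given in the sources used here, so this probe is no check of the genotype.

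Part of the Gla probe's sequence is not particular to Gla. Of the 56 member probes it shared runs of 15 or more letters, on the same strand, with the probes of the most other genes (4), and 10 member probes shared such a run with any. Stretches of 30 bases are shown for the Gla probe, with a run of 12 letters in capitals that recurs in other probes, and for 3 of those that share the longest runs with it, with the run shared with Gla in capitals.
Gla: gatctgatGCCCTCTTCTGGttctctagac
Pde4c: GATCTGATGCCCTCTTCTtttgtgtctgaa
Lrrc31: acGCCCTCTTCTGGTTCTtgtctgaagaca
Pirb: ggatcgaATGCCCTCTTCTGGTgtgtctga
Letters of this kind are known from the B2 family of short interspersed repeats, which occur within many mouse transcripts. These 3 probes lie at chr8:73275002-73275061, chr3:30581602-30581661 and chr7:3663046-3663105 of mm9.

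Besides Gla, 5 probes of the array held the run GCCCTCTTCTGG on the same strand, and all 5 were well above background on all 8 arrays, with mean log2 signals of 17.12 to 17.86. The Pde4c probe, which shares 18 letters with that of Gla but not the whole run, had a mean of 16.74, and that of Vmn1r52, which shares 15 letters, had 6.42. The 3 probes that hold the run on the opposite strand had means of 3.13 to 8.86, and the median over all probes was 6.13. None of these signals ranks RNA amounts between genes, and the share of the Gla signal that came from Gla RNA was not tested. Between the genotypes the median log2 fold change of the 5 probes was 0.03, beside 0.06 for the Gla probe, and none was called.

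The neighbours of Gla on the X chromosome were measured by a list of 8 genes around it with 12 probes, which leaves out Armcx3 and Armcx6 although they lie among them. Of the 12 probes none was called, 5 had an unadjusted p under 0.05 and 10 were negative (median -0.11, against -0.04 over all 41 other probes within 1 Mb). The mean log2 signal of the 8 genes lay at 11.42 to 11.48 in α-Gal A(-/0) mice and 11.52 to 11.59 in wildtype mice, and did not overlap. Nearest to the Gla probe were the 3 probes of Rpl36a, which encodes a protein of the large ribosomal subunit. The lowest p among them was that of A_55_P1956707 at chrX:131122535-131122594, with a log2 fold change of -0.21 (limma, adjusted p = 0.204), and the other two had -0.17 and -0.10. Within 1 Mb of Gla, 1 of 41 other tested probes was called, a probe of Armcx3 (A_55_P2068977), an armadillo repeat protein of mitochondria, higher in α-Gal A(-/0) mice (log2 fold change 0.56, limma, adjusted p = 0.015). Its second probe (A_55_P2006906) had -0.02 (adjusted p = 0.965). A probe of Armcx6 (A_55_P2014319) also met the criterion of the methods, with 0.29 (adjusted p = 0.0822), and its second probe had 0.14. Armcx3 and Armcx6 were singled out after their values were seen.

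In the lysosome, sugars and sulfate are removed stepwise from the lipid. The 13 probes of 11 genes of this group had a median log2 fold change of -0.02, with 4 positive, 9 negative, none called and 1 at an unadjusted p under 0.05. The hydrolases had values of 0.12 for Glb1 (β-galactosidase, which acts on GM1), -0.01 for Hexa (an α subunit of β-hexosaminidase, which acts on GM2), -0.10 for Neu1 (the lysosomal sialidase), 0.00 for Arsa (arylsulfatase A, which desulfates sulfatide) and -0.03 for Galc (which degrades galactosylceramide), with adjusted p between 0.547 and 0.989 (limma). Of the enzymes that cleave ceramide and sphingomyelin, Asah1 (acid ceramidase) had -0.09 and -0.19 by its 2 probes and Smpd1 (acid sphingomyelinase) 0.01. Psap, the precursor of the saposins that present lipids to these hydrolases, had 0.07, and Scarb2, the receptor that carries glucocerebrosidase to the lysosome, -0.02.

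Gm2a, the activator protein with which Hexa degrades GM2, was the member of this group with the lowest p. The log2 signal of its probe A_52_P353417 was 8.48, 8.46, 8.60 and 8.67 in α-Gal A(-/0) mice, against 8.70, 8.73, 8.69 and 8.68 in wildtype mice. All 4 mutant values lay below the lowest wildtype value, mouse 4 by under 0.01, and the difference of -0.15 on the log2 scale (standard error 0.064) did not pass (limma, adjusted p = 0.412). Its second probe had -0.10 (adjusted p = 0.706) with overlapping groups. Between the genotypes 6 member probes did not overlap (11.1%), against 7.94% of all probes. In α-Gal A(-/0) mice 5 of them were lower (9.26%, against 4.86% of all probes), Neu4, this Gm2a probe, Gba2 and 1 probe each of Cerk and Gltp. The other, B4galnt1, was higher (1.85%, against 3.08%).

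Breakdown outside the lysosome was represented by 8 probes of 7 genes, with a median of -0.05. Gba2, the non-lysosomal glucosylceramidase, had log2 signals of 14.11, 14.05, 14.10 and 14.09 in α-Gal A(-/0) mice and 14.22, 14.13, 14.19 and 14.14 in wildtype mice. The groups did not overlap, yet they differed by only -0.09 with a standard error of 0.050 (limma, adjusted p = 0.542). The other sialidases stood near zero, with -0.02 for Neu2 and 0.03 for Neu3, whose probes were both well above background on every array. The neutral sphingomyelinases had -0.01 (Smpd2) and 0.14 (Smpd3), and the neutral ceramidase Asah2 had -0.32 and -0.20 by its 2 probes with wide errors (0.227 and 0.161).

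**Figure D2:**
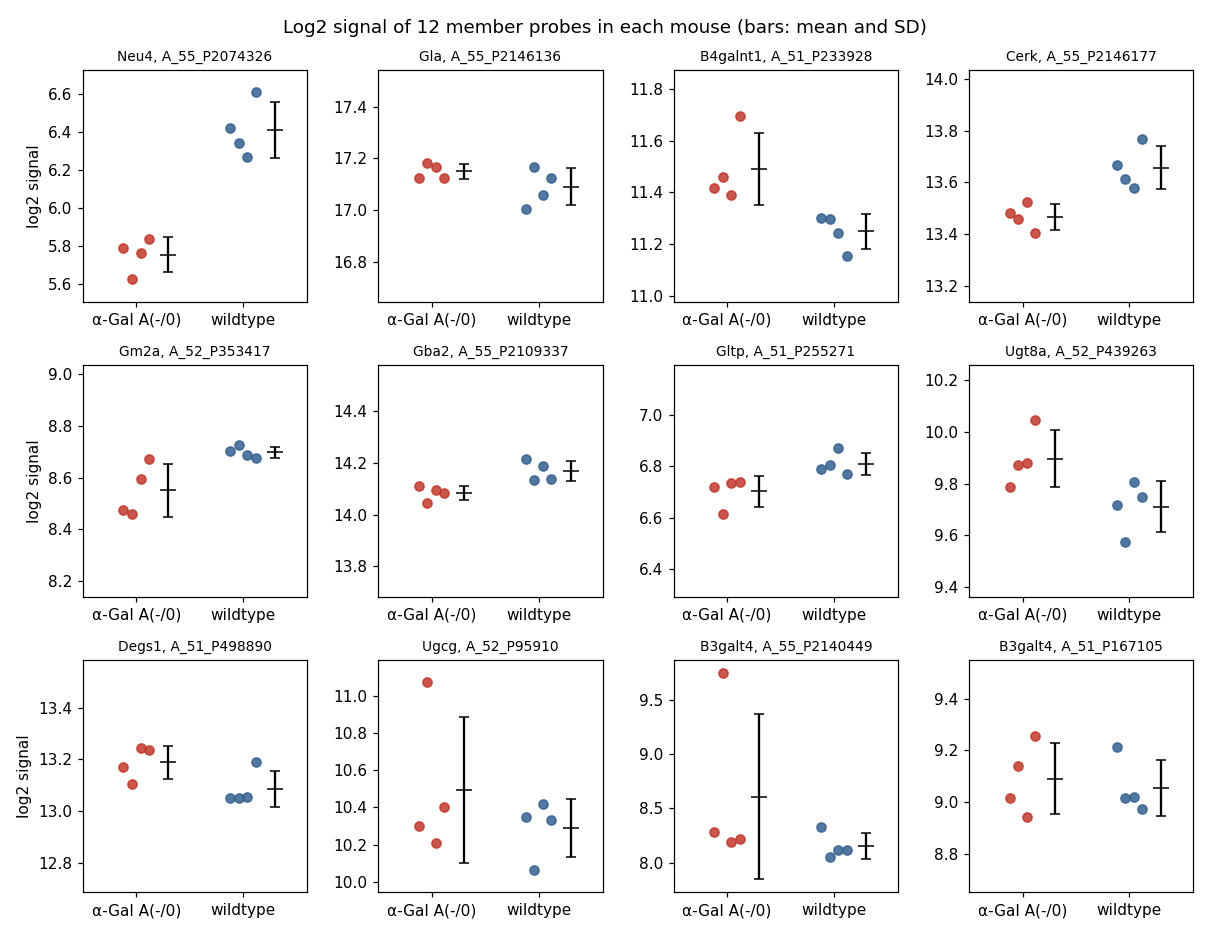
Log2 signal (y axis) of 12 member probes in each of the 4 α-Gal A(-/0) mice (left) and 4 wildtype mice (right), with black bars for mean and SD and mice 1 to 4 set side by side within a group. The Neu4 groups lie apart (5.63 to 5.84 against 6.27 to 6.61), those of Gla overlap, and single high values of Ugcg and of 1 B3galt4 probe belong to α-Gal A(-/0) mouse 2.

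Synthesis of glycosphingolipids and gangliosides was covered by 13 tested probes of 10 genes, with a median of 0.03, 7 positive, 6 negative and none called. The lowest p belonged to B4galnt1, the synthase of GM2 and GD2, on the branch point to complex gangliosides. B4galnt1 (probe A_51_P233928 at chr10:126609172-126609231, mm9) had log2 signals of 11.42, 11.46, 11.39 and 11.69 in α-Gal A(-/0) mice, against 11.30, 11.30, 11.24 and 11.15 in wildtype mice. Every α-Gal A(-/0) mouse lay above every wildtype mouse, mouse 4 the most. The log2 fold change of 0.24 with a standard error of 0.080 (interval 0.06 to 0.43) did not pass over all probes (limma, unadjusted p = 0.0162, adjusted p = 0.295), and over the other settings it kept its sign and missed the threshold.

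Ugcg, which makes glucosylceramide and so begins most of these chains, had log2 signals of 10.30, 11.07, 10.21 and 10.40 in α-Gal A(-/0) mice and 10.35, 10.06, 10.42 and 10.33 in wildtype mice. Mouse 2 stood above all others, and the log2 fold change was 0.20 with it (standard error 0.187) and 0.01 without it. The same mouse was high in 1 probe of B3galt4, the synthase of GM1 and GD1b, at 9.74 where the other 7 mice lay between 8.05 and 8.32. Without mouse 2 the B3galt4 log2 fold change was 0.07 in place of 0.45, and the second B3galt4 probe gave 0.03 with all mice. Mouse 2 is the array with the fewest probes above background, and the part of that in these 2 values was not tested.

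The other enzymes of this group differed by less. A4galt, which makes globotriaosylceramide, the substrate of α-galactosidase A, had 0.07 with a standard error of 0.136. Among the sialyltransferases, St3gal5 (GM3 synthase) had -0.07, St8sia1 (GD3 synthase) 0.00, St8sia5 -0.09 and St3gal2 -0.02 and 0.03 by its 2 probes. The lactosylceramide synthases had -0.07 (B4galt5) and 0.09 and -0.04 (B4galt6, 2 probes). Intervals of 9 of the 13 probes of this group lay within 1.2-fold.

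The myelin lipid pathway was measured by 2 probes. Ugt8a makes galactosylceramide, and its log2 signal was 9.79, 9.87, 9.88 and 10.05 in α-Gal A(-/0) mice and 9.72, 9.57, 9.81 and 9.75 in wildtype mice. α-Gal A(-/0) mouse 1 lay within the wildtype range and the other 3 above it, with a log2 fold change of 0.19 and a standard error of 0.078 (limma, unadjusted p = 0.0428, adjusted p = 0.398). Gal3st1, which sulfates galactosylceramide to sulfatide, had -0.13 (adjusted p = 0.592), so that the 2 steps had opposite signs and neither passed.

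Ceramide and sphingomyelin synthesis was the group with the least movement. Its 10 tested probes of 8 genes had log2 fold changes of -0.12 to 0.10, and 8 of the 10 intervals lay within 1.2-fold. Serine palmitoyltransferase, which starts the pathway, had -0.01 (Sptlc1) and 0.02 and -0.01 (Sptlc2), and the ceramide synthases Cers2, Cers4, Cers5 and Cers6 had -0.01 to 0.09. Degs1, the desaturase that completes ceramide, had the lowest p, with log2 signals of 13.17, 13.10, 13.24 and 13.23 in α-Gal A(-/0) mice and 13.05, 13.05, 13.05 and 13.19 in wildtype mice. Of the wildtype mice, mouse 4 alone lay within the α-Gal A(-/0) range, and the genotypes differed by 0.10 on the log2 scale (limma, adjusted p = 0.544), or 0.06 after a 75th percentile shift or with slide row as a block. The sphingomyelin synthase Sgms1 had -0.12 and 0.01 by its 2 probes. Sgms2 was not well above background on any array and was not tested, nor was a second B4galt5 probe, well above background on 2 of 4 α-Gal A(-/0) arrays and 3 of 4 wildtype arrays. Cers1 had no probe under its own symbol. The reference annotation places it together with Gdf1, whose 2 probes had 0.02 and 0.07 and are not counted here.

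The last group phosphorylates or moves sphingolipids, with 8 probes of 5 genes and a median of -0.06. Cerk, the kinase that makes ceramide 1-phosphate, had by its probe A_55_P2146177 log2 signals of 13.48, 13.46, 13.52 and 13.40 in α-Gal A(-/0) mice, against 13.67, 13.61, 13.58 and 13.77 in wildtype mice. The groups did not overlap, and the log2 fold change was -0.19 with a standard error of 0.061 (interval -0.33 to -0.05, limma, unadjusted p = 0.0142, adjusted p = 0.28). Its second probe had -0.07, with overlapping groups. Gltp, the cytosolic glycolipid transfer protein, had by its probe A_51_P255271 log2 signals of 6.72, 6.61, 6.74 and 6.74 in α-Gal A(-/0) mice and 6.79, 6.80, 6.87 and 6.77 in wildtype mice. These did not overlap either, at -0.11 on the log2 scale (limma, adjusted p = 0.493), and the second Gltp probe had -0.04. With normexp background correction the first had -0.03 (limma, adjusted p = 0.862). That setting starts from other signals, as given for Neu4, and its offset of 50 shrinks the fold changes of dim probes.

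The sphingosine kinases and the lyase of this group showed no called difference. Sgpl1, which cleaves sphingosine 1-phosphate, had -0.14 and the kinase Sphk2 -0.03. For the kinase Sphk1 both probes spread widely between mice of 1 genotype. By probe A_51_P501248 Sphk1 stood at 10.45, 10.53, 10.75 and 10.91 in α-Gal A(-/0) mice, against 10.86, 10.37, 10.40 and 10.82 in wildtype mice. By A_55_P2186005 it stood at 8.04, 8.02, 8.17 and 8.73 in α-Gal A(-/0) mice, against 8.45, 7.90, 7.97 and 8.27 in wildtype mice. In both probes α-Gal A(-/0) mouse 4 and wildtype mice 1 and 4 were the 3 highest.

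Of the 11 members with 2 tested probes, 10 had log2 fold changes within 0.2 of each other, in a set where 51 of 54 probes lay within 1.2-fold in any case. The pair of B3galt4 lay furthest apart, by 0.42. Over the 54 probes, the median deviation from each probe's mean ran from -0.08 in α-Gal A(-/0) mouse 2 to 0.04 in wildtype mouse 4, and the genotypes overlapped in this measure.

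**Figure D3:**
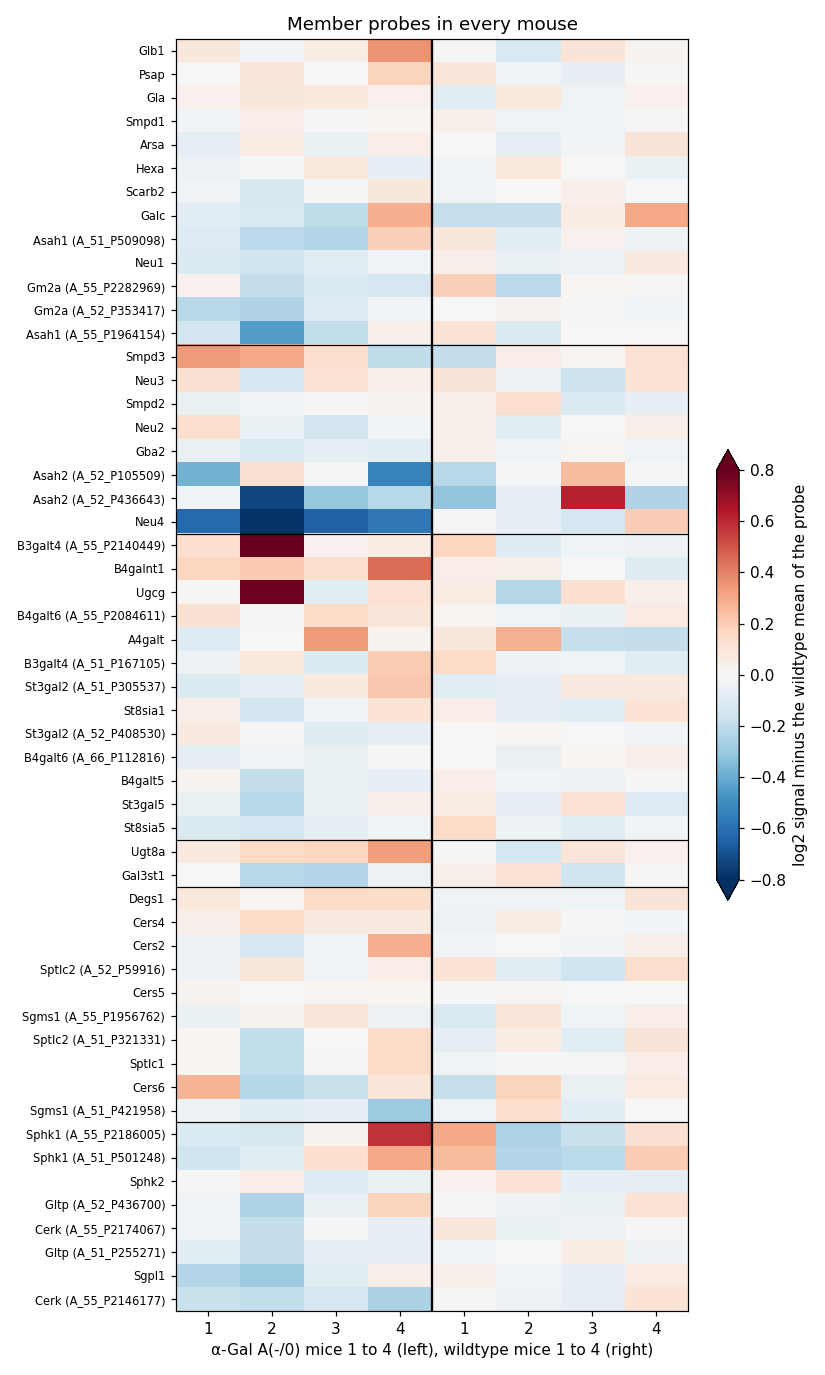
Log2 signal of the 54 tested member probes (rows, by role) in each mouse (columns, α-Gal A(-/0) left and wildtype right), as the difference from the wildtype mean of the probe, with colors cut at 0.8 in either direction. In the Neu4 row all 4 α-Gal A(-/0) cells are dark blue, several other rows are pale blue in all 4, and the dark red cells of Ugcg and B3galt4 stand in α-Gal A(-/0) mouse 2 alone.

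Genes of the same pathways outside the 45 were counted by list. Of the 17 probes of 12 other glycosphingolipid enzymes reported here none was called or had an unadjusted p under 0.05, and their log2 fold changes lay between -0.21 and 0.21 (lowest limma adjusted p = 0.448).

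Of 17 probes of 16 other ceramide and sphingomyelin genes 1 was called, Sptssa, a small subunit that activates serine palmitoyltransferase. Of all tested probes 0.885% were called. An unadjusted p under 0.05 was reached by 3 of the 17, those of Sptssa, Samd8 and Smpdl3b (log2 fold change 0.43), against 12% of all probes. By the methods' own test 0 of the 17 were called at the adjusted threshold used here. Sptssa had log2 signals of 10.43, 10.45, 10.54 and 10.32 in α-Gal A(-/0) mice, against 10.79, 10.81, 10.97 and 11.05 in wildtype mice. The groups did not overlap, with a log2 fold change of -0.47 and a standard error of 0.081 (limma, adjusted p = 0.0458), called in 6 of 18 other settings (adjusted p up to 0.194). Samd8, which makes ceramide phosphoethanolamine, passed the criterion of the methods with 0.51 but not the adjusted threshold (limma, adjusted p = 0.0725). Its log2 signal was 8.80, 8.80, 8.74 and 8.84 in α-Gal A(-/0) mice and 8.49, 8.42, 8.14 and 8.07 in wildtype mice. None of the 7 probes of sphingosine 1-phosphate receptors, phosphatases and transporter and none of the 10 of proteins that deliver enzymes to the lysosome was called or had an unadjusted p under 0.05.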

How the data were processed

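RNA of the prefrontal cortex of 8 mice was hybridized by the study to one-color 60-mer arrays on 1 slide. The deposited scanner tables hold processed intensity values made with Agilent Feature Extraction 10.7.3.1 per the labels, corrected for surface gradients and not normalized between arrays. A second deposited table of values for the whole series was not used here. Left out were control probes and, for an uneven spot, 81 others, spots of a probe averaged, and values taken to log2 and quantile normalized. Genotypes were compared with limma 3.58.1 (statmod 1.5.0) in R 4.3.3, two-sided. Precision is limited by having 4 mice of each genotype. On simulated data of this size, 0 of 50 probes changed 1.2-fold were called, 23 of 50 changed 1.5-fold and 45 of 50 changed 2-fold. Alternatives covered normalization, background, filters, tests, array weights, replicate and slide row blocks and each array left out. Members and lists were chosen with earlier results of these data known. Of the pathway and marker lists, 1 gene is not reported here. Of the members, values per mouse are given for Gla, for probes called, past the criterion or without overlap, for the lowest p of each role group, and for others where mice stood apart, and beyond them for Sptssa and Samd8. Positions, on mm9, come from the array design. Probe sequences come from the scanner tables. Figures were drawn with matplotlib 3.10.9.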

Additional observations from a re-analysis of the deposited data

Results flagged for a closer look

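In 4 of 108 groups of 4 member values, 1 mouse stood far from the other 3 by Dixon's test, which chance gives in about 1 of 20 groups. They were α-Gal A(-/0) mouse 2 for 1 B3galt4 probe (A_55_P2140449, log2 signal 9.74), α-Gal A(-/0) mouse 4 for 1 Sgms1 probe (A_51_P421958, 11.98), α-Gal A(-/0) mouse 2 for 1 Gltp probe (A_51_P255271, 6.61) and wildtype mouse 4 for Degs1 (A_51_P498890, 13.19).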

How the results depend on the processing

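Over the 18 other settings the Gla log2 fold change kept its sign. So did 1 probe each of Gm2a, Neu4 (tested in 17), Gba2, B4galnt1, Cerk, Gltp, Ugt8a and Degs1. The members' median, close to zero, changed sign from -0.01 to 0.005 without wildtype mouse 4. The count of called member probes, 1 in the setting reported, was 0 by the methods' t-test, 0 without wildtype mouse 1, and 0 among probes well above background on all 8 arrays, where the Neu4 probe was not tested and the count past the criterion was 0 too. With each array left out in turn the called member count was 0 to 1, the count past the criterion 1 in every case, the Gla log2 fold change 0.03 to 0.09 and the members' median log2 fold change -0.04 to 0.01. Over all tested probes, 304 were called as reported, 89 by the methods' t-test, 492 with array weights, and 186 to 265 with an array left out, of which 186 without wildtype mouse 3 and 202 without wildtype mouse 1. With the replicate number as a block 157 probes were called, and with slide row as a block, a setting chosen after seeing the data, 150. Replicate numbers did not pair the mice (residual correlations of -0.09, 0.14, 0.01 and 0.15), and the replicate block left the member count at 1, Neu4 at an adjusted p of 0.0452 (limma), and Gla at 0.06 (adjusted p = 0.675). No probe was saturated on any array, so leaving saturated probes out repeats the main fit and adds nothing to the counts of settings. Of 50 simulated probes changed 1.2-fold, drawn from all tested probes, none was called. A difference of that size in a single member can thus go uncalled with 4 arrays per genotype. The median standard error was 0.078 for members and 0.098 for all probes, so the simulation does not settle this for the members measured most closely.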
